A study of Saccharomyces cerevisiae with 12 samples.

Results

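The 10 genes described here are both 14-3-3 genes of Saccharomyces cerevisiae, BMH1 and BMH2, and 8 genes whose proteins are known to bind Bmh1 or Bmh2: NTH1, MKS1, RTG3, REG1, ADR1, MSN2, MSN4 and FIN1. They were chosen by name and not by a cut on their values, though with earlier results of these data known. Each was found once among the 6053 genes of the table. RNA was measured by SAGE-tag sequencing, which reads 1 short tag for each polyadenylated transcript, in BY4741-derived cells (MATa his3∆1 leu2∆0 met15∆0 ura3∆0) grown at 30 °C in Translucent YNB, a medium of defined potassium content, with the amino acids and uracil that the strain needs. There were 4 groups of 3 libraries: bmh2∆::loxP cells kept for 60 min at 0 mM KCl, bmh2∆::loxP cells kept for 60 min at 50 mM KCl, and bmh1∆::loxP cells kept for 60 min at 0 mM or at 50 mM KCl. Every strain therefore lacked 1 of the 14-3-3 genes, each deletion was followed in a single named strain, and the question put to these genes was how their RNA differed with potassium and with the 14-3-3 gene that remained. Wild-type cells are not analysed here.

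14-3-3 proteins are dimers that bind phosphorylated serine and threonine motifs and so change the activity, location or stability of the proteins they hold. Yeast has a pair of near-identical 14-3-3 proteins, Bmh1 and Bmh2, and losing both is lethal in most laboratory strains while losing either is tolerated. Their clients act mostly in nutrient and stress signalling, and binding acts on the protein, so the RNA level of a client is a separate quantity from its regulation by 14-3-3.

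A SAGE tag runs from the CATG nearest the poly(A) tail to 17 bases beyond it, and the table gives 1 value a gene without saying which tag was counted. The tags that BMH1 and BMH2 can give are shown because they set what the deletion of each gene can remove. They were read from the RefSeq R64 reference of strain S288C, since the build used for the deposited values is not given in the sources used here. In each line the CATG is in capitals. BMH1 (YER177W) has a single coding exon at chrV:545611-546414 on the plus strand. Its last coding tag starts 97 bases before the end of the frame at chrV:546318-546338, and 4 more lie within 300 bases downstream of the stop codon, at chrV:546537-546557, chrV:546543-546563, chrV:546569-546589 and chrV:546675-546695. BMH2 (YDR099W) has a single coding exon at chrIV:653607-654428 on the plus strand, its last coding tag lies at chrIV:654272-654292, and no CATG follows within 300 bases of its stop codon.
BMH1, last in frame: CATGtccgagtccggtcaagc
BMH1, downstream 1: CATGtgcatgtacacacgtaa
BMH1, downstream 2: CATGtacacacgtaatcgcgc
BMH1, downstream 3: CATGtctatatgtgttacttg
BMH1, downstream 4: CATGactcccgacaataatcc
BMH2, last in frame: CATGcaattattaagggacaa
Each of these tags matches the reference genome once, and the 5 BMH1 tags differ from the BMH2 tag at 12 to 15 of 21 bases, although the coding sequences of the genes are identical at 81.5% of 804 aligned bases. A transcript that begins upstream of the deletion and runs on past it could still give a downstream BMH1 tag, whereas a transcript without the BMH2 frame has no tag in the searched window.

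BMH2 tags were almost absent from the bmh2∆ libraries. In RPM, the deposited unit, which scales the tags of every library to the same total, BMH2 was at 0.29, 0 and 0 in bmh2∆ libraries C0, E0 and D0 at 0 mM KCl and at 0.18, 0 and 0 in bmh2∆ libraries C50, D50 and E50 at 50 mM KCl. The libraries labelled bmh1∆ had BMH2 at 372, 197 and 454 RPM in GTCACG, B0 and TGCACT at 0 mM KCl and at 275, 505 and 363 RPM in GGATAT, B50 and CTATAG at 50 mM KCl. Every bmh2∆ library was thus far below every library labelled bmh1∆, and the deleted gene checked the bmh2∆ labels.

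BMH1 tags were present in all 12 libraries, those labelled bmh1∆ included. BMH1 stood at 4679, 5293 and 5391 RPM in bmh2∆ libraries C0, E0 and D0 at 0 mM KCl and at 5175, 4276 and 4048 RPM in C50, D50 and E50 at 50 mM KCl. It stood at 1972, 4170 and 1757 RPM in the libraries labelled bmh1∆ GTCACG, B0 and TGCACT at 0 mM KCl and at 1466, 536 and 2189 RPM in GGATAT, B50 and CTATAG at 50 mM KCl. The BMH1 level therefore did not go to 0 in any library labelled bmh1∆, and because the counted tag may lie downstream of the deleted frame it does not check those labels. Whether these tags came from a transcript of the deleted locus was not tested.

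**Figure D1:**
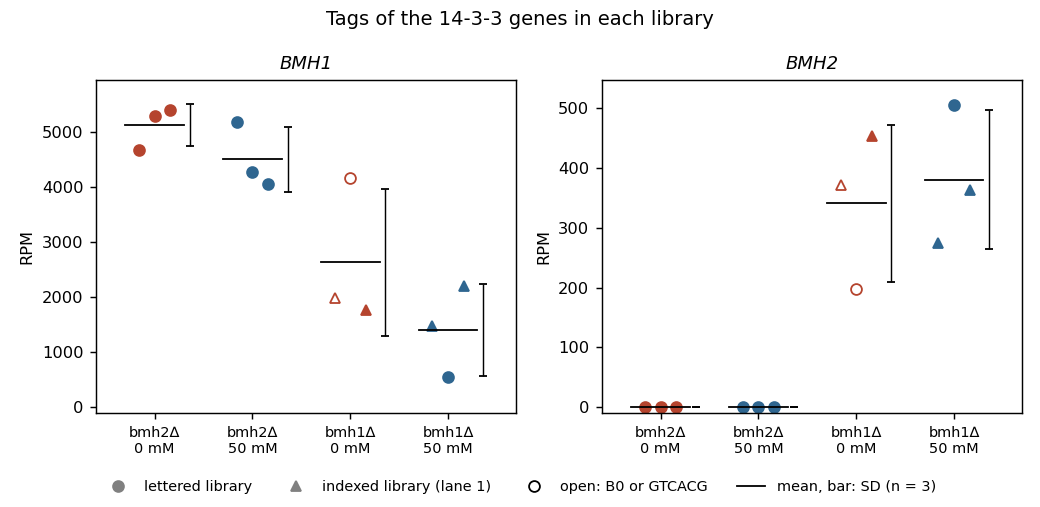
BMH1 (left) and BMH2 (right) in each of the 12 libraries, in RPM on linear axes from 0, by strain and KCl concentration. Points are libraries (circles lettered, triangles indexed, open points B0 and GTCACG), lines are group means and bars are the SD of 3 libraries. BMH2 was at most 0.29 RPM in bmh2∆, and BMH1 was between 4048 and 5391 RPM in bmh2∆ against 536 to 4170 RPM in the libraries labelled bmh1∆.

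The libraries carry differences beyond strain and potassium. All bmh2∆ libraries and B0 and B50 have lettered names (8 libraries, lanes 5 to 7), whereas the other 4 libraries, all labelled bmh1∆, are named by an index and came from lane 1. B0 and GTCACG, both labelled bmh1∆ at 0 mM KCl, were far deeper than the rest when the smallest step between values is taken as 1 read, and in these steps B0 was at or above the sum of the 7 other lettered libraries for all 6053 genes, while GTCACG was below the sum of the 3 other indexed libraries for 1 gene. Removing those sums left 25.1% of the steps of B0, with BMH2 at 668 RPM and BMH1 at 3191 RPM, and 39.1% of those of GTCACG, with BMH2 at 395 RPM and BMH1 at 2279 RPM. Results in the libraries labelled bmh1∆ at 0 mM KCl rest on them: without both, TGCACT alone remains there and is assumed to vary like the other groups. When scaled to the depth of B0, each other lettered library was below the sum of the remaining ones for 866 to 2602 genes. For the indexed libraries scaled to the depth of GTCACG it was 298 to 611 genes. B0 and GTCACG may hold reads of the other libraries, bmh2∆ or 50 mM KCl ones among them, and would then not be independent replicates. This was not tested. Values without both are given beside the results, and the part of these libraries in the results was not tested. The labels do not say whether the 3 libraries of a group came from separate cultures, so p-values measure the spread between libraries, which may be technical.

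The 4 groups were compared by limma on log2(RPM + 1), fitted over the 5278 genes that reached 3 RPM in 3 or more of the 12 libraries, among them all 10 genes. Differences are given with their SE on this log2 scale, which understates the change of genes near 1 RPM, and p-values are adjusted over all genes tested by the Benjamini-Hochberg method. Each SE draws on the spread within all 4 groups, so that of a bmh2∆ difference also carries the spread of the libraries labelled bmh1∆. A gene was called at an adjusted p under 0.05.

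NTH1, encoding the neutral trehalase that breaks down trehalose and is activated when phosphorylated Nth1 is bound by Bmh1 or Bmh2, was the 1 gene of the 10 called on potassium starvation in bmh2∆. Over all genes tested, 5.53% were called in that comparison, 2.9% as higher and 2.63% as lower, and 2 of the 10 (NTH1 and FIN1) had an unadjusted p under 0.05, beside 19.2% of all genes tested. NTH1 stood at 488, 634 and 304 RPM in bmh2∆ libraries C0, E0 and D0 at 0 mM KCl, against 185, 112 and 125 RPM in C50, D50 and E50 at 50 mM KCl. Each starved library lay above each library at 50 mM KCl, and in such cultures more cells with a transcript and more of it per cell cannot be told apart. The difference was 1.72 ± 0.45 (log2, SE), or 3.29-fold on the shifted scale, with a 95% interval of 0.74 to 2.70 and an adjusted p of 0.0492 by limma. The call is a narrow one: of the 12 fits that leave out 1 library, the fit without B50 kept it (adjusted p 0.00951), and the fits without each of the other 11 gave an adjusted p of 0.0502 to 0.191. Without both B0 and GTCACG the adjusted p was 0.061, and with the lettered libraries alone it was 0.00486.

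In the libraries labelled bmh1∆ the NTH1 values overlapped between potassium concentrations. NTH1 was at 151, 286 and 241 RPM in GTCACG, B0 and TGCACT at 0 mM KCl, against 74.3, 197 and 74.1 RPM in GGATAT, B50 and CTATAG at 50 mM KCl. The difference of 1.08 ± 0.45 had an adjusted p of 0.354 by limma. Within the indexed libraries alone it was 1.35 (adjusted p 0.16), without B0 and GTCACG it was 1.22 (adjusted p 0.419), and within the lettered libraries, 1 against 1 with the spread of the bmh2∆ libraries assumed, it was 0.54. The difference between the NTH1 responses of bmh2∆ and bmh1∆ was 0.64 with an interval of −0.75 to 2.03 (adjusted p 0.993), so it was not resolved.

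NTH2 encodes a second, related trehalase, and the ratio of NTH1 to NTH2 within a library does not depend on how libraries were scaled. The ratio was 10.5, 17.0 and 4.58 in bmh2∆ libraries C0, E0 and D0 at 0 mM KCl, against 2.52, 1.34 and 1.47 in C50, D50 and E50 at 50 mM KCl. In the libraries labelled bmh1∆ it was 2.12, 4.30 and 4.64 in GTCACG, B0 and TGCACT at 0 mM KCl, against 0.70, 4.88 and 0.90 in GGATAT, B50 and CTATAG at 50 mM KCl. The ratio was higher in every starved bmh2∆ library than in any bmh2∆ library at 50 mM KCl, by 2.43 on the log2 scale, and an exact two-sided permutation test gave p = 0.1, the smallest that 3 against 3 libraries allow. In bmh1∆ the difference of 1.25 gave an exact p of 0.4, with B50 among the highest ratios.

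Trehalose is made by the Tps1 synthase and Tps2 phosphatase with the regulatory subunits Tps3 and Tsl1, and is also degraded by Ath1. Of these 5 genes and NTH2, 0 of 6 were called in bmh2∆ by limma, beside 5.53% of all genes tested. An unadjusted p under 0.05 was found for 3 in bmh2∆, beside 19.2%. The bmh2∆ median difference was 1.16 against 0.05 over all genes tested. In bmh1∆ 1 of 6 rose, beside 0.966% of all genes tested, and 3 had an unadjusted p under 0.05, beside 11.7%. The bmh1∆ median was 1.03 against 0.14 over all genes tested. Without B0 and GTCACG the bmh1∆ median was 1.77 with 0 called. The gene that rose was TSL1, at 161 ± 66.5 RPM at 0 mM KCl and 33.2 ± 14.2 RPM at 50 mM KCl in the libraries labelled bmh1∆ (SD, n = 3 each), a difference of 2.26 ± 0.46 with an adjusted p of 0.0474. Its call was kept without GTCACG and lost without each of the other 11 libraries in turn (adjusted p 0.0586 to 0.186), as it was without both B0 and GTCACG (a difference of 2.82, adjusted p 0.0514). With the bmh1∆ groups compared alone the adjusted p of TSL1 was 0.478 by limma, in a fit that called 0.0379% of all genes tested. NTH2, with a log2 difference of −0.72 in bmh2∆ (adjusted p 0.328), lay lower in all 3 starved bmh2∆ libraries without passing the test.

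NTH1 has 3 copies of the stress response element within 500 bases before its start codon (chrIV:450220-452475, minus strand, YDR001C, a single coding exon). This element, the pentamer AGGGG or its reverse complement CCCCT, is the motif bound by Msn2 and Msn4, and the 3 copies are shown with 10 bases on each side because NTH1 was the client gene that was called. They lie on the minus strand at chrIV:452811-452835, chrIV:452803-452827 and chrIV:452613-452637, and the element is in capitals. The first 2 windows overlap each other.
NTH1, copy 1: taggacgaagCCCCTtatcccctag
NTH1, copy 2: agccccttatCCCCTagttaccgaa
NTH1, copy 3: agaaattttcCCCCTatcgttttcc
Counting both strands, 34.0% of 6019 protein-coding genes have 1 or more copies in the same window and 8.12% have 2 or more. Of the 10 genes, 6 have 1 or more: BMH1 and NTH1 have 3 each, BMH2 and REG1 have 2 each, and MKS1 and FIN1 have 1 each. A match describes the letters and is not a measured binding site.

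MSN2 and MSN4 encode paralogous zinc finger activators of the general stress response, and 14-3-3 proteins have been linked to keeping Msn2 in the cytoplasm. Their coding sequences are identical at 61.0% of aligned bases. MSN2 was at 100, 102 and 92.4 RPM in bmh2∆ libraries C0, E0 and D0 at 0 mM KCl, against 82.7, 87.5 and 78.3 RPM in C50, D50 and E50 at 50 mM KCl. All 3 starved libraries lay above the others, yet the difference of 0.24 ± 0.68 had an adjusted p of 0.914 by limma. The bmh2∆ groups of 3 genes of the 10 (NTH1, MSN2 and FIN1) did not overlap, with starved libraries higher, beside 20.2% of all genes tested (40.6% in either direction). MSN4 was at 30.4, 34.2 and 24.8 RPM in bmh2∆ libraries C0, E0 and D0 at 0 mM KCl, against 58.9, 19.2 and 23.7 RPM in C50, D50 and E50 at 50 mM KCl, and these values overlapped.

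In the libraries labelled bmh1∆, MSN2 and MSN4 followed the kind of library. MSN2 was at 92.4 RPM in B0 and 33.0 and 18.9 RPM in GTCACG and TGCACT at 0 mM KCl, against 101 RPM in B50 and 23.0 and 13.1 RPM in GGATAT and CTATAG at 50 mM KCl. MSN4 was at 31.0 RPM in B0 and 13.8 and 13.4 RPM in GTCACG and TGCACT at 0 mM KCl, against 36.4 RPM in B50 and 12.5 and 6.72 RPM in GGATAT and CTATAG at 50 mM KCl. Over both strains MSN2 ranged from 78.3 to 102 RPM in the 8 lettered libraries against 13.1 to 33.0 RPM in the 4 indexed ones, and MSN4 from 19.2 to 58.9 RPM against 6.72 to 13.8 RPM. Neither gene overlapped between the kinds of library, as was so for 12.2% of genes tested with all lettered libraries above all indexed ones and for 22% below, while the other 8 genes overlapped. The starvation difference in bmh1∆ was 0.29 ± 0.68 for MSN2 (adjusted p 0.944) and 0.27 ± 0.59 for MSN4 (adjusted p 0.933) by limma, and −0.71 for MSN2 and −0.13 for MSN4 without B0 and GTCACG.

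The ratio of MSN4 to MSN2 did not separate the potassium concentrations. It was 0.30, 0.34 and 0.27 in bmh2∆ libraries C0, E0 and D0 at 0 mM KCl, against 0.71, 0.22 and 0.30 in C50, D50 and E50 at 50 mM KCl. The log2 difference was −0.27 in bmh2∆ (exact permutation p = 0.8) and −0.02 in bmh1∆ (exact permutation p = 1.0), with values of either sign when single libraries were left out. The MSN4 value of C50 was the highest of all 12 libraries and set the sign in bmh2∆, where the difference was 0.21 without it.

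Most listed genes that Msn2 and Msn4 activate had higher values at 0 mM KCl, though few were called, and MSN2 and MSN4 themselves were not called. The list was chosen with earlier results of these data known. Of 18 measured targets, 3 rose in bmh2∆ by limma, beside 2.9% of all genes tested, and 12 had an unadjusted p under 0.05, beside 19.2%. In bmh2∆ 17 had a difference above 0, beside 53.3% of all genes tested, with a median of 1.33 against 0.05 over all genes tested. In bmh1∆ 1 of 18 rose, beside 0.966% of all genes tested, and 10 had an unadjusted p under 0.05, beside 11.7%. There all 18 had a difference above 0, beside 60.7% of all genes tested, with a median of 1.51 against 0.14 over all genes tested. The medians stayed positive under quantile normalization (1.38 in bmh2∆ and 1.27 in bmh1∆) and under median-of-ratios scaling (1.32 in bmh2∆ and 1.34 in bmh1∆), and without B0 and GTCACG the bmh1∆ median was 1.92 with 1 of 18 called.

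TKL2, a transketolase, reached 39.7 ± 10.2 RPM at 0 mM KCl and 5.23 ± 1.30 RPM at 50 mM KCl in bmh2∆ (SD, n = 3 each), a difference of 2.69 ± 0.41 with an adjusted p of 0.00666 by limma. HSP104, a disaggregase, reached 885 ± 108 RPM at 0 mM KCl and 248 ± 50.8 RPM at 50 mM KCl in bmh2∆, a difference of 1.85 ± 0.33 with an adjusted p of 0.013. SOD2, the mitochondrial superoxide dismutase, reached 234 ± 40.8 RPM at 0 mM KCl and 91.5 ± 13.4 RPM at 50 mM KCl in bmh2∆, a difference of 1.34 ± 0.28 with an adjusted p of 0.0206. SOD2 was also the target called in bmh1∆, where it reached 161 ± 16.7 RPM at 0 mM KCl and 51.3 ± 15.5 RPM at 50 mM KCl, a difference of 1.67 ± 0.28 with an adjusted p of 0.0188. With the bmh1∆ groups compared alone its adjusted p was 0.417 by limma, in a fit that called 0.0379% of all genes tested. In bmh2∆ the call of TKL2 was lost without C0 (0.0515), that of HSP104 without D50, E50 or C0 (0.0521 to 0.0792), and that of SOD2 without C50, D50, E50, C0 or D0 (0.0666 to 0.106). In bmh1∆ the call of SOD2 was lost without CTATAG, without GTCACG or without TGCACT (0.0631 to 0.0823), and without both B0 and GTCACG (0.0636). Of 9 kinases and phosphatases that act upstream of Msn2, 0 were called in either strain by limma, beside 5.53% and 0.966% of all genes tested. An unadjusted p under 0.05 was found for 4 in bmh2∆ and 1 in bmh1∆, beside 19.2% and 11.7%. Their median differences were 0.15 in bmh2∆ and 0.43 in bmh1∆, against 0.05 and 0.14 over all genes tested.

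**Figure D2:**
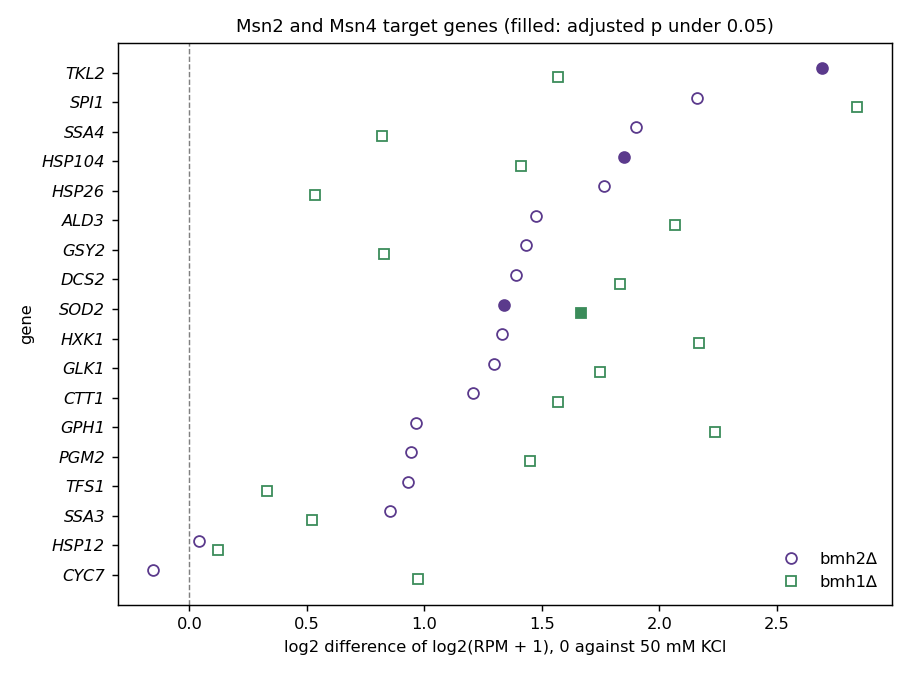
Log2 difference of log2(RPM + 1) between 0 and 50 mM KCl for 18 Msn2 and Msn4 target genes, ordered by the value in bmh2∆ (circles), with bmh1∆ as squares and genes called at an adjusted p under 0.05 filled. Of the 18, 17 lay above 0 in bmh2∆ and 18 in bmh1∆, with medians of 1.33 in bmh2∆ and 1.51 in bmh1∆.

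FIN1 encodes a filament-forming protein of the mitotic spindle whose phosphorylated form is bound by Bmh1 and Bmh2. FIN1 was at 12.3, 11.7 and 10.0 RPM in bmh2∆ libraries C0, E0 and D0 at 0 mM KCl, against 6.46, 6.62 and 5.70 RPM in C50, D50 and E50 at 50 mM KCl. Each starved library lay above each library at 50 mM KCl, with a narrow spread in both groups. The difference was 0.76 ± 0.31 with an adjusted p of 0.199 by limma over all 12 libraries, and FIN1 was called when the bmh2∆ libraries were fitted alone (adjusted p 0.0326) or with the lettered libraries alone (adjusted p 0.0318), fits in which 23.9% and 23.7% of all genes tested were called. Among libraries labelled bmh1∆ FIN1 was at 13.7, 8.59 and 14.6 RPM in GTCACG, B0 and TGCACT at 0 mM KCl, against 14.6, 8.50 and 7.79 RPM in GGATAT, B50 and CTATAG at 50 mM KCl, and these values overlapped.

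Of 6 kinase, phosphatase and degradation genes that act on Fin1, 1 fell in bmh2∆ by limma, beside 2.63% of all genes tested. In that strain 4 of the 6 had an unadjusted p under 0.05, beside 19.2% of all genes tested. In bmh1∆ 0 were called and 1 had an unadjusted p under 0.05, beside 0.966% and 11.7% of all genes tested. The median differences were −0.44 in bmh2∆ and −0.40 in bmh1∆, against 0.05 and 0.14 over all genes tested. The gene that fell was CLB6, an S-phase cyclin gene, at 0.55 ± 0.062 RPM at 0 mM KCl and 21.9 ± 7.12 RPM at 50 mM KCl in bmh2∆ (SD, n = 3 each), a difference of −3.83 ± 0.80 with an adjusted p of 0.0206. Its call was lost without any 1 of the 6 bmh2∆ libraries (0.0523 to 0.095). In bmh1∆ CLB6 differed by −1.71 (adjusted p 0.44), and by −3.92 (adjusted p 0.0281) without B0 and GTCACG.

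MKS1 and RTG3 encode proteins of the retrograde pathway, which signals mitochondrial dysfunction to the nucleus. Mks1 blocks the pathway when bound by Bmh1 or Bmh2, and Rtg3 is the activator that acts with Rtg1. MKS1 was at 36.5, 50.3 and 25.7 RPM in bmh2∆ libraries C0, E0 and D0 at 0 mM KCl, against 27.8, 28.6 and 26.0 RPM in C50, D50 and E50 at 50 mM KCl. Among libraries labelled bmh1∆ it was at 35.3, 32.1 and 31.9 RPM in GTCACG, B0 and TGCACT at 0 mM KCl, against 28.1, 40.7 and 28.1 RPM in GGATAT, B50 and CTATAG at 50 mM KCl. MKS1 lay between 25.7 and 50.3 RPM in all 12 libraries, and its values overlapped in both strains, with differences of 0.39 (interval −0.25 to 1.03) in bmh2∆ and 0.05 (interval −0.59 to 0.69) in bmh1∆.

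RTG3 had the lowest mean of the 10 genes, 2.25 RPM over the 12 libraries. It was at 1.82, 3.41 and 2.13 RPM in bmh2∆ libraries C0, E0 and D0 at 0 mM KCl, against 3.32, 2.96 and 3.67 RPM in C50, D50 and E50 at 50 mM KCl. Among libraries labelled bmh1∆ it was at 4.06, 2.72 and 0.60 RPM in GTCACG, B0 and TGCACT at 0 mM KCl, against 0.52, 1.44 and 0.33 RPM in GGATAT, B50 and CTATAG at 50 mM KCl. The 2 libraries at 0 mM KCl with more RTG3 than the third were the deep ones, and the difference of 0.87 ± 0.42 in bmh1∆ (adjusted p 0.471 by limma) became −0.09 without B0 and GTCACG. The RTG3 responses of bmh2∆ and bmh1∆ differed by −1.22 ± 0.60 (adjusted p 0.993), or −0.25 without those libraries.

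Of 7 targets of Rtg1 and Rtg3, 1 rose in bmh2∆ by limma, beside 2.9% of all genes tested, and 2 had an unadjusted p under 0.05, beside 19.2%. In bmh1∆ 0 were called, beside 0.966% of all genes tested, and 1 (CIT2) had an unadjusted p under 0.05, beside 11.7%. The medians were −0.48 in bmh2∆ and 0.70 in bmh1∆, against 0.05 and 0.14 over all genes tested. Without B0 and GTCACG the bmh1∆ median was 0.07 with 1 called. The gene called in bmh2∆ was CIT2, the peroxisomal citrate synthase and standard reporter of the pathway, at 2523 ± 187 RPM at 0 mM KCl and 752 ± 34.6 RPM at 50 mM KCl in bmh2∆ (SD, n = 3 each), a difference of 1.74 ± 0.36 with an adjusted p of 0.0202, which was lost without any 1 of the 6 bmh2∆ libraries (0.0547 to 0.0935). In bmh1∆ CIT2 differed by 1.46 ± 0.36 (adjusted p 0.105), and by 2.22 (adjusted p 0.0344) without B0 and GTCACG. Of the regulators RTG2, GRR1 and LST8, 0 of 3 were called in either strain by limma, beside 5.53% and 0.966% of all genes tested. An unadjusted p under 0.05 was found for 1 in bmh2∆ and 0 in bmh1∆, beside 19.2% and 11.7%, and RTG1 is not analysed here.

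REG1 and ADR1 belong to glucose signalling. Reg1 directs the phosphatase Glc7 against the Snf1 kinase, and Adr1 is an activator of genes for the use of ethanol, glycerol and fatty acids that is held inactive by 14-3-3 binding. REG1 was at 28.9, 31.4 and 20.6 RPM in bmh2∆ libraries C0, E0 and D0 at 0 mM KCl, against 16.9, 22.7 and 31.3 RPM in C50, D50 and E50 at 50 mM KCl, and these values overlapped. In the libraries labelled bmh1∆ it was at 32.5, 23.4 and 17.2 RPM in GTCACG, B0 and TGCACT at 0 mM KCl, against 15.4, 14.6 and 10.3 RPM in GGATAT, B50 and CTATAG at 50 mM KCl. All 3 starved libraries labelled bmh1∆ lay above the others. The REG1 difference was 0.79 ± 0.34 with an adjusted p of 0.384 by limma, and 0.35 without B0 and GTCACG.

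ADR1 was at 12.9, 15.5 and 8.31 RPM in bmh2∆ libraries C0, E0 and D0 at 0 mM KCl, against 15.3, 3.19 and 10.3 RPM in C50, D50 and E50 at 50 mM KCl, and these values overlapped. Among libraries labelled bmh1∆ it was at 6.55, 8.97 and 4.69 RPM in GTCACG, B0 and TGCACT at 0 mM KCl, against 0.98, 4.01 and 0.98 RPM in GGATAT, B50 and CTATAG at 50 mM KCl. Each starved library labelled bmh1∆ lay above each at 50 mM KCl, and the difference was the largest of the 10 genes in that strain, 1.48 ± 0.53 with an adjusted p of 0.271 by limma. It was 1.72 within the indexed libraries, 0.99 within the lettered pair and 1.07 without B0 and GTCACG, and with the kind of library (lettered or indexed) as a term in the fit its adjusted p was 0.0472, where 8.72% of all genes tested were called.

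In bmh1∆, 0 of the 10 genes were called by limma, beside 0.966% of all genes tested, and 3 had an unadjusted p under 0.05 (ADR1, NTH1 and REG1), beside 11.7% of all genes tested. Groups that did not overlap were found for 2 of the 10, both higher at 0 mM KCl, beside 9.44% of all genes tested in that direction and 12.6% in either. BMH1 differed by 1.02 ± 0.49 in bmh1∆ (adjusted p 0.455), by 0.06 within the 4 indexed libraries (adjusted p 0.949) and by 0.55 without B0 and GTCACG. Between the lettered libraries B0 and B50, 1 against 1, it differed by 2.96. In B0 the BMH1 level was the highest and the BMH2 level the lowest of the 6 libraries labelled bmh1∆, with a BMH1 to BMH2 ratio of 21.1, while the ratio was 1.06 in B50 and 3.87 to 6.04 in the 4 indexed libraries. For every gene B0 was at or above the sum of the other lettered libraries, all bmh2∆ libraries among them. With that sum removed, B0 had BMH1 at 3191 RPM and BMH2 at 668 RPM. The other 5 genes (BMH2, MKS1, MSN2, MSN4 and FIN1) differed by −0.20 to 0.29 in bmh1∆ with adjusted p of 0.844 or more, and BMH1, BMH2, MKS1, RTG3, REG1, ADR1 and MSN4 differed by −0.35 to 0.49 in bmh2∆ with adjusted p of 0.557 or more.

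**Figure D3:**
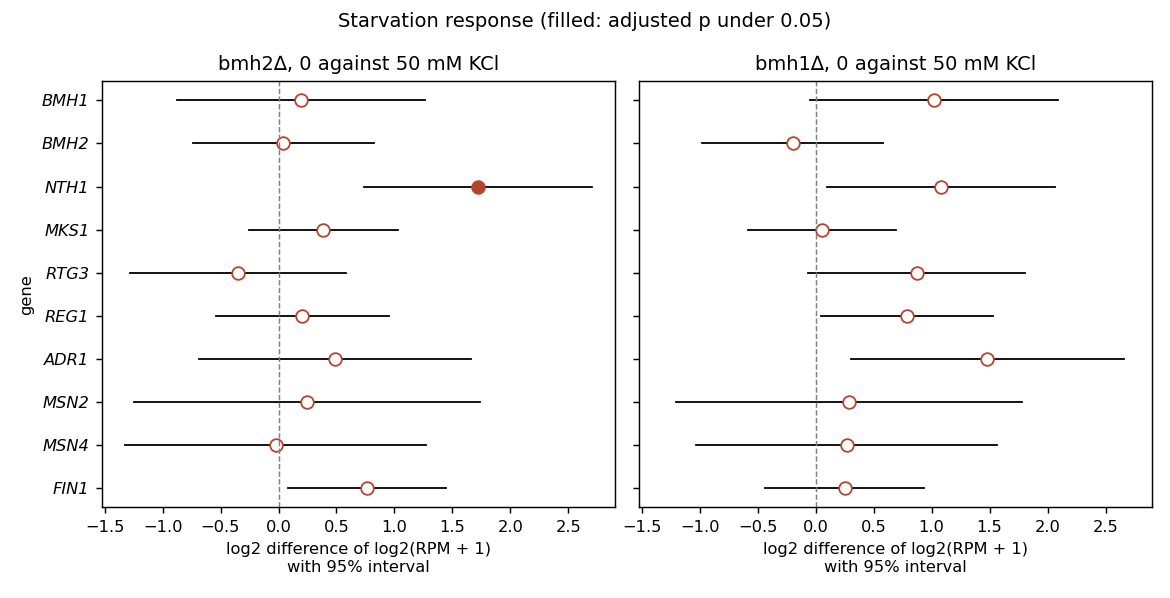
Log2 difference of log2(RPM + 1) between 0 and 50 mM KCl for the 10 genes in bmh2∆ (left) and bmh1∆ (right), with the 95% interval of the limma fit and a filled point for an adjusted p under 0.05. NTH1 in bmh2∆ (1.72) is the filled point, and the intervals of MSN2 and MSN4 are among the widest. Every interval draws on the spread within all 4 groups.

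Of the 17 listed targets of Adr1, 14 were tested. By limma 1 rose in each strain, beside 2.9% of all genes tested in bmh2∆ and 0.966% in bmh1∆. An unadjusted p under 0.05 was found for 5 in bmh2∆ and 2 in bmh1∆, beside 19.2% and 11.7% of all genes tested. The medians were −0.34 in bmh2∆ and 0.05 in bmh1∆, against 0.05 and 0.14 over all genes tested. The bmh1∆ median was −0.22 under quantile normalization and −0.11 under median-of-ratios scaling. The called gene was in both strains CIT3, a mitochondrial citrate and methylcitrate synthase, at 28.7 ± 5.46 RPM at 0 mM KCl and 2.10 ± 0.87 RPM at 50 mM KCl in bmh2∆ (SD, n = 3 each), a difference of 3.28 ± 0.52 with an adjusted p of 0.00915 that was kept in all 24 alternative fits. In bmh1∆ CIT3 was at 26.4 ± 14.4 RPM at 0 mM KCl and 2.70 ± 1.99 RPM at 50 mM KCl, a difference of 2.95 ± 0.52 with an adjusted p of 0.0239, which was lost without GGATAT, without GTCACG, without TGCACT or without E50 (0.0503 to 0.109) and kept without both B0 and GTCACG (0.0329). With the bmh1∆ groups compared alone the adjusted p of CIT3 was 0.403 by limma, in a fit that called 0.0379% of all genes tested. Of 12 genes of the Snf1 kinase and Glc7 phosphatase, 0 were called in either strain by limma, beside 5.53% and 0.966% of all genes tested. An unadjusted p under 0.05 was found for 1 in bmh2∆ and 0 in bmh1∆, beside 19.2% and 11.7% of all genes tested. Of 7 further Bmh partners, 0 were called in either strain and 1 in each had an unadjusted p under 0.05, beside the same shares.

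The starvation response of 0 of the 10 genes differed between bmh2∆ and bmh1∆ by limma, and 0 had an unadjusted p under 0.05, beside 0% of all genes tested called and 3.2% with an unadjusted p under 0.05. Apart from RTG3, the 9 differences between responses (BMH1, BMH2, NTH1, MKS1, REG1, ADR1, MSN2, MSN4 and FIN1) ran from −0.995 to 0.638, with intervals reaching from −2.66 to 2.07. The lack of calls does not show that the strains responded alike.

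**Figure D4:**
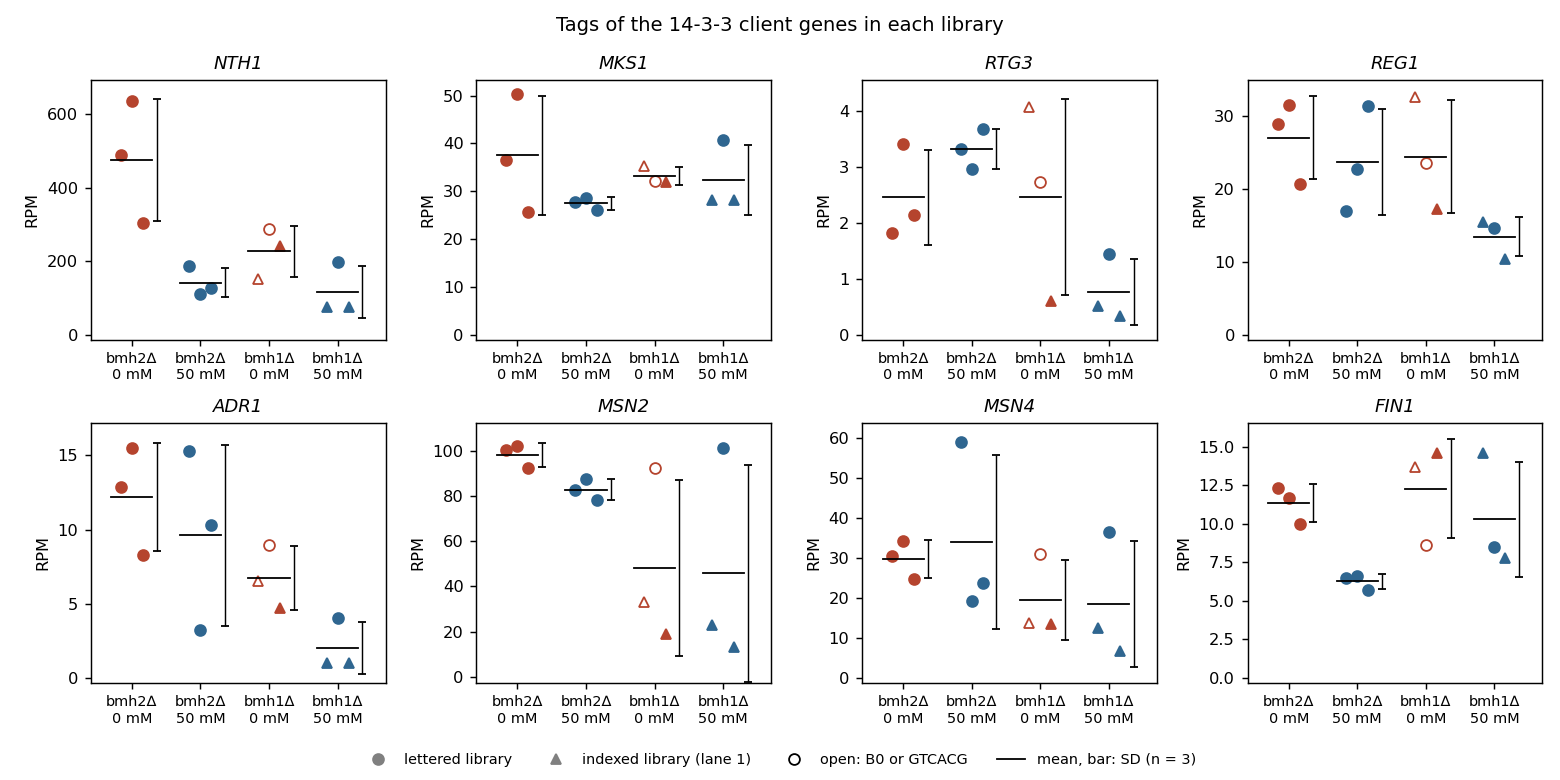
The 8 client genes in each of the 12 libraries, in RPM on linear axes, by strain and KCl concentration, with circles for lettered and triangles for indexed libraries, open points for B0 and GTCACG, lines for group means and bars for the SD of 3 libraries. NTH1, MSN2 and FIN1 separate the potassium concentrations in bmh2∆, and REG1 and ADR1 in bmh1∆. MSN2 and MSN4 separate the lettered from the indexed libraries.

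Between the strains at 50 mM KCl, BMH2 alone of the 10 genes was called, by −8.45 ± 0.36 (adjusted p 3.23e-07 by limma), beside 0.0568% of all genes tested called and 0.0379% called as lower. The size of this difference depends on the pseudocount, since 4 of the bmh2∆ libraries are listed at 0. At 0 mM KCl BMH2 was again the gene called, by −8.21 ± 0.36 (adjusted p 4.43e-07), beside 0.0189% of all genes tested. BMH1 was higher in every bmh2∆ library than in any library labelled bmh1∆ at the same potassium concentration, by 1.90 ± 0.49 at 50 mM KCl (adjusted p 0.172) and by 1.07 ± 0.49 at 0 mM KCl (adjusted p 0.395). BMH1 was therefore not called in either comparison, and with lettered libraries alone, where bmh1∆ is B50 alone at 50 mM KCl and B0 alone at 0 mM KCl, the difference was 3.06 at 50 mM KCl and 0.29 at 0 mM KCl. Without B0 and GTCACG the difference at 0 mM KCl was 1.54 (adjusted p 0.252) for BMH1 and −8.71 for BMH2.

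RTG3 and REG1 also lay above the libraries labelled bmh1∆ in every bmh2∆ library at 50 mM KCl, by 1.34 ± 0.42 (adjusted p 0.207) and 0.75 ± 0.34 (adjusted p 0.301) by limma, while FIN1 lay below, by −0.59 ± 0.31 (adjusted p 0.353). In all, 3 genes of the 10 lay above (BMH1, RTG3 and REG1) and 2 below (BMH2 and FIN1), beside 10.7% above and 9.28% below among all genes tested (20% in either direction). An unadjusted p under 0.05 was found for 5 (BMH1, BMH2, RTG3, REG1 and ADR1), beside 16.6% of all genes tested. BMH1 and BMH2 are the genes deleted in the strains compared, so their places in these counts are no result about the client genes. ADR1 differed by 1.77 ± 0.53 (adjusted p 0.203). None of these was called over the 12 libraries, but without B50 the genes ADR1 (adjusted p 0.0162), MSN2 (0.0162), RTG3 (0.0247), BMH1 (0.026) and MSN4 (0.0397) were called beside BMH2, in a fit that called 25.4% of all genes tested. The 2 libraries labelled bmh1∆ that then remain at 50 mM KCl are both indexed and the bmh2∆ libraries are all lettered, so there strain and kind of library (lettered or indexed) cannot be told apart.

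The strain differences of MSN2 and MSN4 depended on which libraries were compared. MSN2 differed between bmh2∆ and bmh1∆ at 50 mM KCl by 1.36 ± 0.68 (adjusted p 0.332 by limma) over all libraries, by −0.08 with the kind of library as a term and by −0.29 with the lettered libraries alone. MSN4 differed by 0.98 ± 0.59 (adjusted p 0.411), by −0.02 with the kind of library as a term and by −0.27 with the lettered libraries alone. At 0 mM KCl MSN2 differed by 1.32 ± 0.68 (adjusted p 0.395), by −0.12 with the kind of library as a term by 0.09 with the lettered libraries alone and by 2.32 without B0 and GTCACG.

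At 0 mM KCl NTH1 lay above in every bmh2∆ library, by 1.05 ± 0.45 (adjusted p 0.395 by limma) and by 0.91 without B0 and GTCACG. Over the 23 alternative fits this difference ran from 0.40 to 1.34. All bmh2∆ libraries are lettered, and in bmh1∆ the lettered B0 (286 RPM) lay above the indexed GTCACG (151 RPM) and TGCACT (241 RPM). With BMH1, 2 of the 10 genes lay above without overlap and 1 (BMH2) below, beside 6.57% above and 11.8% below among all genes tested (18.3% in either direction). An unadjusted p under 0.05 was found for 2 (BMH2 and NTH1), beside 11.5%. BMH1 and BMH2 are again the deleted genes, so their places in these counts are no result about the client genes. The remaining 6 genes (MKS1, RTG3, REG1, ADR1, MSN4 and FIN1) differed by −0.08 to 0.77. At 50 mM KCl NTH1 and MKS1 differed by 0.42 and −0.21.

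Averaged over the 12 libraries, the 10 genes ran from 3413 RPM for BMH1 (rank 44 of 6053) through NTH1 at 239 RPM, BMH2 at 180 RPM and MSN2 at 68.8 RPM to MKS1 at 32.6 RPM, MSN4 at 25.4 RPM and REG1 at 22.1 RPM. FIN1 at 10.0 RPM, ADR1 at 7.64 RPM and RTG3 at 2.25 RPM closed the order, and each transcript gives 1 tag whatever its length. The mean of BMH2 includes the 6 libraries that lack the gene: in the libraries labelled bmh1∆ BMH2 averaged 341 RPM at 0 mM KCl and 381 RPM at 50 mM KCl, above NTH1 at 226 RPM and 115 RPM. Within the bmh2∆ libraries at 50 mM KCl the ranges of MKS1, MSN4 and REG1 overlapped, as did those of FIN1 and ADR1, so the order of these neighbours was not resolved there. In the libraries labelled bmh1∆ at 50 mM KCl FIN1, at 7.79 to 14.6 RPM, lay above ADR1, at 0.98 to 4.01 RPM.

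As a description, the gene whose log2(RPM + 1) followed each of the 10 most closely over the 12 libraries was SSC1 for NTH1 (Pearson r 0.98), IRA1 for MSN2 (0.99), VPS71 for MSN4 (0.95) and CHS6 for FIN1 (0.92). It was ARC35 for BMH1 (0.94), YLR154C-H for BMH2 (0.88), BNA6 for MKS1 (0.94), EFM1 for RTG3 (0.94), RRP15 for REG1 (0.91) and TDH3 for ADR1 (0.93). These are the highest of 5278 candidates each, and the 12 points share strain, potassium and kind of library.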

How the data were processed

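Cells were cultured and RNA was tagged as the labels describe: polyadenylated RNA was cut with NlaIII, MmeI tags were ligated and amplified by 15 PCR cycles, and the tags of 12 libraries were sequenced. The deposited table holds 6053 genes in RPM, which the authors obtained from trimmed reads with tag counts scaled so that each library sums to the same total; per the file headers no other normalization is named, and for the aligner and genome build the sources used here give nothing. RPM values are not counts, so limma 3.58.1 in R 4.3.3 was used on log2(RPM + 1) with trended and robust moderation, in 1 fit of 4 group means with 5 contrasts and Benjamini-Hochberg adjustment. A gene was tested where 3 or more libraries reached 3 RPM. Ratios of paralogues were compared by exact permutation (SciPy 1.17.1). Columns carry no replicate number and were assigned to groups by name. If the smallest step were 1 read, depth would be 12910762 to 13766555 in bmh2∆ at 0 mM KCl, 10353246 to 12842532 in bmh2∆ at 50 mM KCl, 13437133 to 107579363 in bmh1∆ at 0 mM KCl and 6237952 to 19334173 in bmh1∆ at 50 mM KCl. The members, lists and tests were chosen with earlier results of these data known. By rule, values were given for all 10 genes (singly or as ranges), for the genes of 9 lists that pass (up to 4 by p) and for the closest gene of each member. Of 87 listed genes 85 are in the table. The fit was tested on simulated data. Alternatives were the pseudocount, filter, scaling, moderation, kind of library (lettered or indexed) as a term, replicate block, threshold and libraries left out, and 1 fit of the indexed libraries alone, which was added after seeing the data. Sequences come from RefSeq R64.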

Additional observations from a re-analysis of the deposited data

How the results depend on the processing

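In bmh2∆, the count of 1 gene called on potassium starvation became 0 with no filter on low values, with a filter of 10 RPM, with quantile normalization, with median-of-ratios scaling and without B0 and GTCACG, and 2 (FIN1 and NTH1) with the groups compared alone and with the lettered libraries alone, fits that called 23.9% and 23.7% of all genes tested. It ran from 0 to 1 when single libraries were left out. In the replicate block fit of bmh2∆, by the letter that libraries share, the count was 1, with NTH1 at an adjusted p of 0.00137. Deviations of same-letter libraries correlated at 0.07 (C), 0.25 (D) and −0.29 (E), and those of unlike letters at −0.60 to 0.53. So few libraries cannot show whether the letters pair them, and the main fit does not use the letters. In bmh1∆ the count of 0 became 1 with the kind of library as a term (ADR1) and with the lettered libraries alone (BMH1), and stayed 0 with the indexed libraries alone. The count of responses differing between strains became 1 (BMH1) with the lettered libraries alone. There bmh1∆ is 1 library at each potassium concentration (B0 and B50), assumed to vary like those of bmh2∆, so each count of this fit that involves bmh1∆ rests on single libraries. The count between strains at 50 mM KCl became 2 with the lettered libraries alone and was 1 to 6 when single libraries were left out, 6 being without B50, where 25.4% of all genes tested were called. At 0 mM KCl it was 1 in every alternative. Differences changed sign for RTG3 in bmh1∆ (−0.093 without B0 and GTCACG), for MSN2 between strains at 50 mM KCl (−0.077 with the kind of library as a term, −0.29 with the lettered libraries alone) and at 0 mM KCl (−0.12 with the kind of library as a term), and for MSN4 at 50 mM KCl (−0.021 with the kind of library as a term and −0.27 with the lettered libraries alone). The cause was not tested. The log2 ratio of MSN4 to MSN2 on starvation ran from −0.62 to 0.21 in bmh2∆ and from −0.32 to 0.22 in bmh1∆ when single libraries were left out. RTG3 has no value under the filter of 10 RPM. Scaling by median of ratios moved the median of all genes in bmh1∆ to −0.04, against 0.14 as deposited. Genes near 1 RPM, such as RTG3 and CLB6, are limited by depth.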
